A study of Mus musculus with 36 samples.

Results

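The progeny of Lrig1+ hair follicle cells was compared between 8 weeks (8w pw1) and 4 weeks (4w pw1) after a first skin wound. The comparison used the 6 Lrig1 GL libraries of these time points (3 per time point) of 36 libraries in the series, and it was made over all genes rather than over a chosen set. GL stands for genetically labelled: the mice carried Lrig1-EGFP-ires-CreERT2 and Rosa26-fl/STOP/fl-tdTomato, topical 4-OHT switched the tdTomato reporter on in cells with Lrig1 promoter activity, and every descendant of a labelled cell kept the colour. All Lrig1 GL groups, including the unwounded one (0w), carried both alleles and received 4-OHT, the Lgr5 GL libraries used at the end came from mice with Lgr5-EGFP-ires-CreERT2 in place of the Lrig1 allele, and the wounded mice had a full-thickness biopsy punch wound in tail skin at 7 to 9 weeks of age. Each library held 150 sorted tdTomato+ cells from a zone with both the wound bed and the hair follicles away from it, so cells that had moved into the repaired epidermis and cells still in their follicle were pooled. The study used mice of both sexes, and different mice at each time point. The libraries are called a, b and c within a time point, because the numbers in the count table are not those of the labels at 4w and 8w, and the letters pair nothing.

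Lrig1 is a transmembrane inhibitor of growth factor receptors that marks stem cells of the junctional zone, the part of the hair follicle between the sebaceous gland and the infundibulum. After a wound these cells can leave the follicle, enter the interfollicular epidermis and take part in its repair. Basal keratinocytes there rest on a basement membrane and express Krt5, Krt14 and Trp63, and cells that differentiate move upwards, exchange these keratins for Krt1 and Krt10 and end as flattened, cross-linked cornified cells.

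The 6 libraries had between 1264142 and 3365666 counts. No molecular identifiers were used, so 3 counts, taken as the detection floor, cover counting error only. Across genes, Pearson's r of log2 CPM was between 0.792 and 0.808 within 4w pw1 and between 0.822 and 0.838 within 8w pw1, against 0.702 to 0.785 between the time points, where genes are not independent. The epidermal markers Krt5 and Krt14 were abundant in all 6 libraries. The 8w pw1 libraries stood apart from the other 15 Lrig1 GL libraries in composition. Mitochondrially encoded genes took 14.4, 10.9 and 12.9% of their counts, against 8.68, 3.82 and 4.90% at 4w pw1 and 3.15 to 8.99% in the remaining 12 libraries. The mean transcript length per count was 3938 ± 61.5 bases at 8w pw1 and 2992 ± 161 bases at 4w pw1 (SD, n = 3 libraries each), and 3004 to 3675 bases in those 12. Results are therefore also given with each library's trend on transcript length or on GC content removed.

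**Figure D1:**
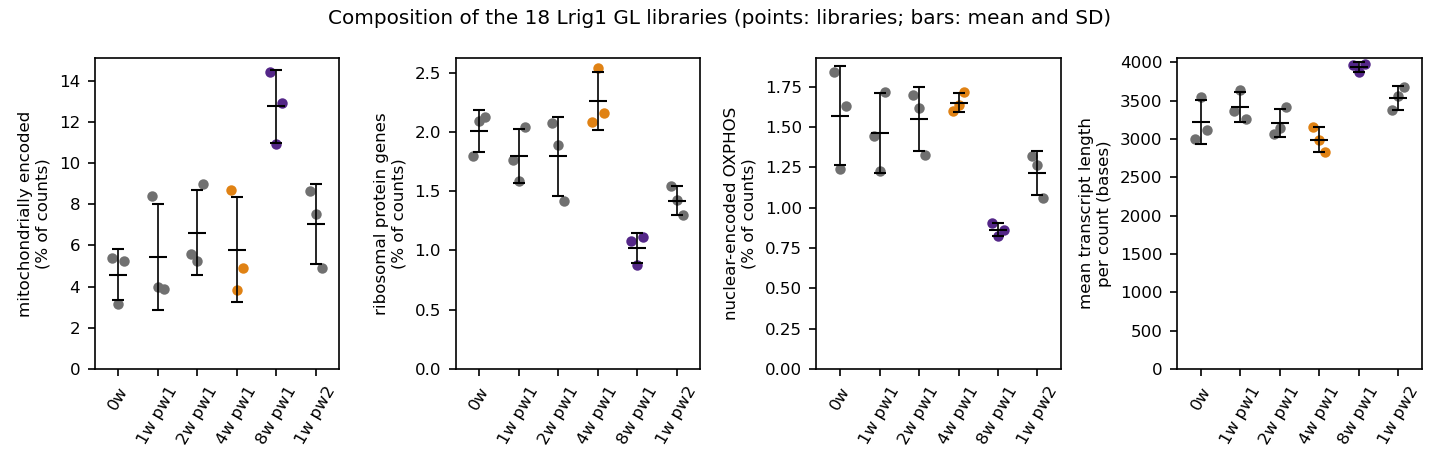
Share of counts from mitochondrially encoded genes, from cytoplasmic ribosomal protein genes and from nuclear-encoded genes of oxidative phosphorylation (% of all counts), and mean transcript length per count (bases), in each Lrig1 GL library by time point, with mean and SD of 3 libraries. The libraries of 8w pw1 have the highest mitochondrial shares and mean lengths and the lowest ribosomal protein and oxidative phosphorylation shares of the 18 libraries.

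Between 4w pw1 and 8w pw1, 527 of 14306 genes (3.68%) were called, 253 of them higher (1.77%) and 274 lower (1.92%) at 8w pw1. Calls came from edgeR's quasi-likelihood test with Benjamini-Hochberg adjustment, fitted on all 18 Lrig1 GL libraries, and required an adjusted p below 0.05 together with at least 1 log2 unit of difference. The median log2 fold change was 1.91 among the higher and -1.47 among the lower genes, and 0.07 over all genes tested. In each of the 527 genes the libraries of the time points did not overlap in CPM. Over all genes tested, the libraries of 8w pw1 were all above those of 4w pw1 in 16.7% and all below in 15.8%. The calls lay close to the threshold, with a smallest adjusted p of 0.0152, and they depended on single libraries: without 4w pw1 library b, 4w pw1 library c or 8w pw1 library a, 0 genes were called in edgeR's test (2562, 2405 and 2483 genes at an unadjusted p under 0.05). Without 8w pw1 library b there were 40 calls and without 8w pw1 library c 138, whereas 463 were made without 4w pw1 library a. The count also depended on the test: edgeR called 0 genes with 2 or 5 surrogate variables, a step of the study's own methods, and 0 with the replicate block (1030, 1612 and 2459 genes at an unadjusted p under 0.05), while DESeq2 called 1534 and edgeR's likelihood ratio test 1291. All 527 genes had the same direction with any 1 of the 6 libraries left out. Their lack of overlap all but fixed this in advance, so nothing is read from it. The split between directions also moved with the scaling or the libraries fitted, from 253 higher and 274 lower to 299 and 212 with DESeq2's size factors and to 434 and 205 when the 6 libraries were fitted alone.

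Genes that were higher at 8w pw1 had long, GC-poor transcripts and genes that were lower had short, GC-rich ones. Their median transcript lengths were 4930 and 1070 bases, against 2641 bases over all genes, and their median GC contents were 43.3 and 54.8%, against 49.6%. In the shortest quintile of transcripts 5.72% of genes were lower and 0.351% higher. In the longest quintile 0% were lower and 4.95% higher. The gradient was not limited to called genes: the median log2 fold change went from -0.80 in the shortest to 0.79 in the longest quintile, and from 1.13 in the most GC-poor to -0.65 in the most GC-rich quintile. After removal of the GC trend from each library 45 genes were called, and 50 after removal of the length trend. With both removed, 5 genes were called, among them Fzd7 at a log2 fold change of 1.90 and Dad1 at -2.21. The other 3 were AC154232.2, Psma2 and Serbp1, of which Psma2 and Serbp1 were not called with the trends left in. Of the 82 called genes named here, 10 kept their call with the GC trend removed (Fzd7, Dad1, Fosl2, S100a11, Calm5, Dyrk2, Calm4, Dsp, Atp6v0e and Snrnp25) and 19 with the length trend removed, among them Dad1, Mir99ahg, Spry2, Eif6, Rbm39, Pfn1 and Krt1. Dad1, S100a11, Dyrk2 and Snrnp25 were called under either correction.

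**Figure D2:**
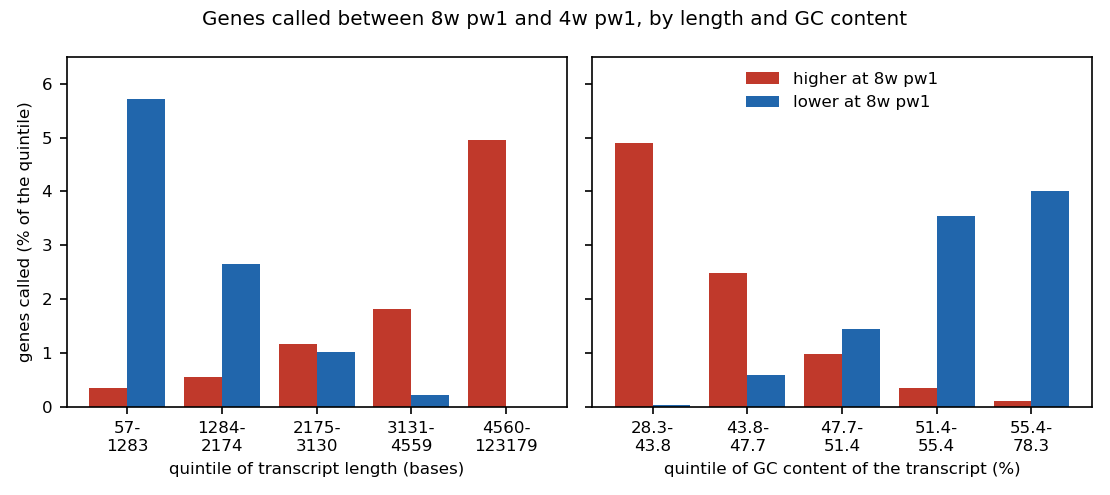
Share of genes called higher (red) or lower (blue) at 8w pw1 than at 4w pw1, in % of the genes of each quintile of transcript length (bases, left) and of GC content (%, right). Higher calls rise with length and fall with GC content, and lower calls run the other way, from 5.72% in the shortest to 0% in the longest quintile.

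Coding sequences show the ends of the range of base composition, and the ranges of higher and lower genes overlap. The following 90-base stretches come from the middle of the longest coding exon of the 3 higher genes with the lowest and the 3 lower genes with the highest coding GC content among the 24 genes with the smallest adjusted p. They are coding strand sequences from GENCODE M21 transcripts (GRCm38), 5′ to 3′, with G and C in capitals.
Trpm7 (chr2:126813008-126813097, minus strand, exon 26 of 39): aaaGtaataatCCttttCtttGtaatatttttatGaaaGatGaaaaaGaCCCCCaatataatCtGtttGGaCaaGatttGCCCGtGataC
Rif1 (chr2:52111411-52111500, plus strand, exon 30 of 36): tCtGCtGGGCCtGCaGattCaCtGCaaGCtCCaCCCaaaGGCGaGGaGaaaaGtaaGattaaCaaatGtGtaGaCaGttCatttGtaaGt
Rbm39 (chr2:156159095-156159184, minus strand, exon 11 of 17): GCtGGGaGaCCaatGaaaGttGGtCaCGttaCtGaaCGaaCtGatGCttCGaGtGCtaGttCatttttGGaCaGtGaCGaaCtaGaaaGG
Uqcr11 (chr10:80404183-80404272, minus strand, exon 2 of 3): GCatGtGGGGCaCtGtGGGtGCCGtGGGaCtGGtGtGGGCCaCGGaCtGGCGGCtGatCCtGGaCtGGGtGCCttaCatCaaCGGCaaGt
Slc25a39 (chr11:102404494-102404583, minus strand, exon 8 of 12): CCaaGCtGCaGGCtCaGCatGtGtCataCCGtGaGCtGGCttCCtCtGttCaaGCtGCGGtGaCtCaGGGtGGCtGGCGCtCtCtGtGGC
Eif6 (chr2:155822883-155822972, minus strand, exon 5 of 6): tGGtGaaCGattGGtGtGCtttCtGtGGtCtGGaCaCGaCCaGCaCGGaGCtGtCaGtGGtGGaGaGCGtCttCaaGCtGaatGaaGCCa
The coding sequences of the higher genes had 39.4% (Trpm7, 5589 bases), 40.8% (Rif1, 7278 bases) and 42.8% GC (Rbm39, 1590 bases). Those of the lower genes had 60.7% (Uqcr11, 168 bases), 59.1% (Slc25a39, 1077 bases) and 57% GC (Eif6, 735 bases). Other genes of the 24 ran the other way: the higher genes Fzd7, Naa30, Dyrk2 and Spry2 had 61.8, 58.7, 56.5 and 56% coding GC, and the lower genes Calm5, S100a11 and Atp6v0e 46.7, 46.9 and 48.7%.

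Levels over the whole time course are given for 4 of the called genes as group means, with no test. Spry2 had 58 ± 9.34, 84.5 ± 5.0, 77.1 ± 15.7, 51.1 ± 11.7 and 212 ± 53.5 CPM at 0w and at 1, 2, 4 and 8 weeks after the first wound, and 188 ± 64.9 CPM 1 week after a second one (1w pw2). Fzd7 had 120.5 ± 14.3, 93.6 ± 30.4, 77.8 ± 13.4, 75.2 ± 11.7, 265 ± 37.7 and 172 ± 42.9 CPM in the same order. Pfn1 had 643 ± 268, 528 ± 118, 768 ± 64.5, 747 ± 145, 205 ± 16.2 and 323 ± 71.2 CPM, with its lowest level at 8w pw1. Krt1 had 3261 ± 2359, 4101 ± 600.0, 3747 ± 662, 7650.1 ± 5137, 1543 ± 389 and 3297 ± 114 CPM.

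Of 12 differentiation genes of the interfollicular epidermis, 5 were called lower at 8w pw1 and 0 higher (41.7%, against 1.92% of all genes called lower). The median log2 fold change of the list was -1.34, against 0.07 over all genes. With the GC or the length trend removed 1 was called in each case, and the median was -0.98 and -1.21. Krt1 (GRCm38 chr15:101845426-101850794), the first keratin of suprabasal cells, had 3570.4, 13419 and 5961 CPM at 4w pw1 and 1797, 1095 and 1737 CPM at 8w pw1. All 3 later libraries were below all 3 earlier ones, and the spread at 4w pw1, where library b was highest, was far wider than at 8w pw1. The log2 fold change of Krt1 was -2.31 ± 0.49 (adjusted p = 0.0210). Calm4, an epidermal calmodulin-like protein, fell from 5106 ± 2105 to 923 ± 204 CPM (SD, n = 3), with a log2 fold change of -2.47 ± 0.46 (adjusted p = 0.0157). Its close paralog Calm5 fell from 382 ± 215 to 68.9 ± 10.6 CPM, a log2 fold change of -2.47 ± 0.45 (adjusted p = 0.0157), and reads of these paralogs may have been split by the counting. Lgals7, a galectin of stratified epithelia, had 1346, 3923 and 2699.9 CPM at 4w pw1 and 852, 694 and 826 CPM at 8w pw1, a log2 fold change of -1.75 ± 0.34 (adjusted p = 0.0170). Dmkn, a secreted protein of the upper layers, had a log2 fold change of -1.29 ± 0.30 (adjusted p = 0.0289). The other member called lower was Krtdap, a protein of the same layers. At 0w, Krt1 had 1127, 2862 and 5794 CPM, of which the lowest lay within the range of 8w pw1 and the highest within that of 4w pw1. Calm4 had 1384, 1814 and 5750.3 CPM at 0w, all above the 8w pw1 libraries, and the highest of these lay within the range of 4w pw1.

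Cornified envelope genes build the protein shell of dead surface cells. Their median was lower still, -2.56 over 17 tested, and 1 was called (5.88%, against 1.92% of all genes called lower). That gene was Cnfn, cornifelin, with 9.18, 110.0 and 131 CPM at 4w pw1 and 2.18, 0 and 0 CPM at 8w pw1. Its adjusted p was 0.0289, and no fold is given because 2 of the 8w pw1 libraries had 0 counts. The summed share of the list was 0.136, 0.557 and 1.11% of counts at 4w pw1 and 0.115, 0.294 and 0.337% at 8w pw1, which overlap. Among the wound-induced keratins, made by keratinocytes that have been activated, Krt6b was called lower at -2.56 ± 0.66 (adjusted p = 0.0407), with 104, 40.8 and 145 CPM before and 10.9, 9.16 and 28.9 CPM after. The other 3 of the 4 were not called, and the median of the list was -1.64. How many suprabasal cells a library held and how much of these transcripts each cell made cannot be told apart in pooled cells.

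**Figure D3:**
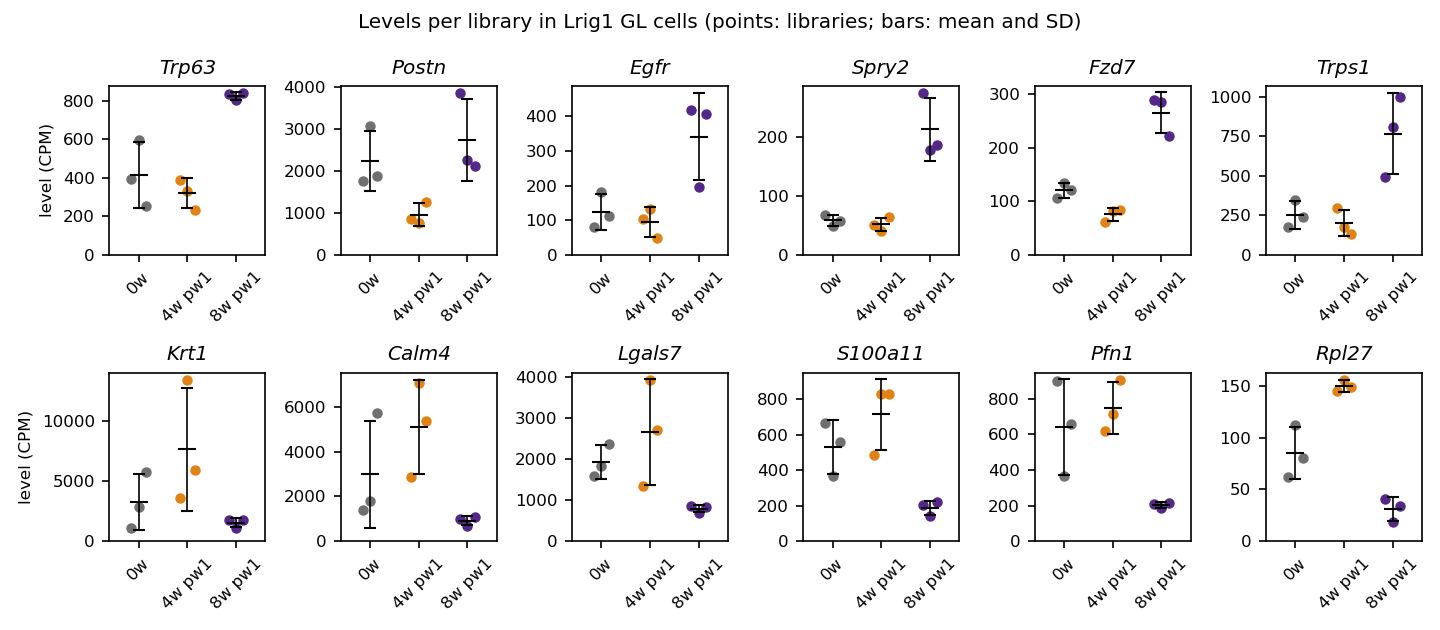
Level of 12 genes in each Lrig1 GL library at 0w, 4w pw1 and 8w pw1 (CPM, linear axes from 0), with mean and SD of 3 libraries. In the upper row (Trp63, Postn, Egfr, Spry2, Fzd7, Trps1) the 3 libraries of 8w pw1 lie above those of 4w pw1, and in the lower row (Krt1, Calm4, Lgals7, S100a11, Pfn1, Rpl27) they lie below.

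Basal and other keratinocyte genes did not move as 1 group. Trp63 (chr16:25683763-25892102), the transcription factor that keeps keratinocytes basal, rose from 390.1, 332 and 234 CPM to 833, 801 and 839 CPM, a log2 fold change of 1.37 ± 0.33 (adjusted p = 0.0302). Dsp, which links desmosomes to keratin filaments, rose from 2664, 3033 and 1467 to 10913, 6516 and 9728 CPM, at 1.92 ± 0.39 (adjusted p = 0.0194). These were the calls among 10 keratinocyte markers (20%, against 1.77% of all genes called higher), whose median was 0.28. Trp63 was not called with the GC or the length trend removed, and Dsp was called with the GC trend removed only. The basal keratins Krt5 and Krt14 were not called. Krt5 had 4032 ± 161 CPM at 4w pw1 and 2555 ± 697 CPM at 8w pw1, a log2 difference of -0.66 ± 0.24 (adjusted p = 0.124). Krt14 had 14952 ± 2917 and 7974 ± 2422 CPM, a log2 difference of -0.91 ± 0.26 (adjusted p = 0.0566). In both keratins the 8w pw1 libraries were all below those of 4w pw1. Their transcripts have 2197 and 1698 bases with 56.9 and 57.2% GC, and that of Trp63 has 5366 bases with 44.2% GC. No call was made among 12 basal adhesion genes, of which Col17a1, a hemidesmosome collagen, had 875 ± 176 and 919.8 ± 139 CPM, and Dst, which ties hemidesmosomes to keratins, 489 ± 82.4 and 657 ± 87 CPM.

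Among genes of the follicle compartments, Postn was called among 16 of the junctional zone and infundibulum (6.25%, against 1.77% of all genes called higher). The median of these 16 was -0.53. Postn (chr3:54361109-54391037), a matricellular protein, had 852, 754 and 1264 CPM at 4w pw1, 3872, 2257 and 2115 CPM at 8w pw1 and 1751, 3070.3 and 1888 CPM at 0w. The 8w pw1 values fell within the range of 0w in 2 of 3 libraries, while the 4w pw1 values were all below it, and the log2 fold change from 4w to 8w was 1.52 ± 0.39 (adjusted p = 0.0376). With the GC trend removed, Postn stood at 1.04 and was not called. Lrig1 itself had 46.9, 80.7 and 93 CPM at 4w pw1 and 74.3, 124 and 103 CPM at 8w pw1, against 224, 244 and 183 CPM at 0w, and the difference between 8w and 4w of 0.45 ± 0.33 (adjusted p = 0.449) was not called. Ly6a, which encodes the surface antigen Sca-1, had 649, 394 and 596 CPM at 4w pw1 and 269, 195 and 280.3 CPM at 8w pw1, a log2 difference of -1.14 ± 0.32 (adjusted p = 0.0551) that missed the threshold. No gene was called among 15 of the bulge and hair germ, where Sox9, a follicle stem cell factor, had 743 ± 239.6 and 556 ± 142 CPM and Cdh3, P-cadherin, 571 ± 252 and 280.4 ± 44.6 CPM. Among 14 hair shaft and inner root sheath genes the call was Trps1 (7.14%, against the same 1.77%), a repressor needed for hair growth. Of the 14, 5 were positive and 9 negative, with a median of -0.96, and 0 were called with the GC or the length trend removed. Trps1 rose from 294, 178 and 133 to 490.5, 809 and 1000.2 CPM at 1.92 ± 0.43 (adjusted p = 0.0260). No sebaceous or lipid synthesis gene of 21 was called. Fabp5, a fatty acid carrier, had 1321 ± 457 and 385 ± 267 CPM and Hmgcs1, of cholesterol synthesis, 279 ± 20.8 and 504 ± 49.8 CPM.

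Among 4 signalling lists, 1 or 2 members each were called, all of them higher at 8w pw1. They made up 11.8% of the EGF receptor list, 4.35% of the Wnt, 7.14% of the Notch and 9.52% of the TGF-beta and BMP list. Of all genes, 1.77% were called higher. With the GC trend removed 0, 1, 0 and 0 members were called in the same order, and with the length trend removed 1, 0, 0 and 0. Egfr (chr11:16752203-16918158), the epidermal growth factor receptor, had 105, 131 and 47.7 CPM at 4w pw1 and 419.8, 196 and 408 CPM at 8w pw1, a log2 fold change of 1.85 ± 0.47 (adjusted p = 0.0368). Spry2 (chr14:105891947-105896819), a feedback inhibitor of receptor tyrosine kinases, had 49.5, 40.3 and 63.6 CPM and 274, 178 and 185 CPM, at 2.06 ± 0.34 (adjusted p = 0.0152). At 0w Spry2 stood at 67.7, 49.1 and 57 CPM, close to its level at 4w pw1. These were the calls among 17 genes of the EGF receptor family and its feedback, with a median of 0.35. Fzd7 (chr1:59482424-59486955), a Wnt receptor, had 61.7, 81.2 and 82.7 CPM at 4w pw1, 289, 285 and 222 CPM at 8w pw1 and 106, 135 and 120.4 CPM at 0w. The groups did not overlap, and the log2 fold change from 4w to 8w was 1.82 ± 0.31 (adjusted p = 0.0157). It was the call among 23 Wnt pathway genes, whose median was 0.82. Among 14 Notch pathway genes, Maml2, a coactivator of Notch transcription, was called higher (adjusted p = 0.0353), from 6.12, 0.996 and 17.5 to 51.7, 40.9 and 73.4 CPM. The value of 0.996 CPM lies below the floor of 3 counts, so no fold is given. Among 21 genes of the TGF-beta and BMP pathway, Bmpr2, a type II BMP receptor, and Skil, a SMAD corepressor, were called at 1.45 ± 0.34 (adjusted p = 0.0289) and 1.45 ± 0.38 (adjusted p = 0.0441). With both the GC and the length trend removed these stood at -0.25 and -0.02. Fosl2, an AP-1 subunit, was the call among 9 AP-1 genes (11.1%, against the same 1.77%). It rose from 169, 154 and 209.8 to 486, 347 and 432 CPM at 1.25 ± 0.25 (adjusted p = 0.0195), and its level at 0w was 314 ± 48.2 CPM.

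Other membrane and kinase genes were among the 12 higher genes with the smallest adjusted p. Prlr, the prolactin receptor, had 131, 188 and 105 CPM at 4w pw1 and 884, 471 and 705 CPM at 8w pw1, at 2.28 ± 0.38 (adjusted p = 0.0152). Trpm7, an ion channel fused to a kinase, had 185, 114 and 69.9 and 586, 525 and 508 CPM, at 2.13 ± 0.36 (adjusted p = 0.0152). Dyrk2, a dual-specificity kinase, had 16.3, 16.4 and 23.8 and 237, 103 and 120.1 CPM, at 3.03 ± 0.49 (adjusted p = 0.0152), which makes it 8.15-fold higher. At 0w, Prlr stood at 328 ± 133, Trpm7 at 151 ± 38.3 and Dyrk2 at 53.6 ± 14.1 CPM, above the 4w pw1 mean in each case. Cd2ap, an adaptor between the membrane and actin, rose from 107 ± 13.5 to 423 ± 128 CPM at 1.98 ± 0.35 (adjusted p = 0.0157).

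Of 25 actin cytoskeleton genes tested, 5 were called lower and 2 higher, and the other 18 were not called. The share called in either direction was 28%, against 3.68% of all genes. With the GC trend removed 0 were called, and with the length trend removed 1 was called lower and 0 higher. Pfn1 (chr11:70651850-70654644), profilin, which feeds actin monomers into filaments, had 622, 712 and 906 CPM at 4w pw1 and 211, 186 and 217 CPM at 8w pw1, a log2 fold change of -1.87 ± 0.31 (adjusted p = 0.0152). Actb fell from 5328 ± 804 to 2495 ± 114 CPM at -1.09 ± 0.24 (adjusted p = 0.0237), and Myl6, a myosin light chain, from 277 ± 2.75 to 111 ± 11.6 CPM at -1.32 ± 0.30 (adjusted p = 0.0267). Cfl1 and Tpm3 were the other lower members, and the kinases Rock1 and Rock2 the higher ones. Rock1, a kinase that activates myosin, rose from 113, 48.8 and 97 to 172, 274 and 345 CPM at 1.61 ± 0.35 (adjusted p = 0.0234). Fscn1, which bundles actin in protrusions, was the call among 18 migration and matrix protease genes (5.56%, against 1.92% of all genes called lower). Its adjusted p was 0.0440, on low values of 34.2, 3.98 and 6.36 CPM at 4w pw1 and 1.09, 1.83 and 1.07 CPM at 8w pw1. No fold is given so close to the floor. Among 16 cadherin and desmosome genes, 12.5% were called, against 3.68% of all genes. Jup, plakoglobin, was lower at -1.30 ± 0.35 (adjusted p = 0.0450) while Dsp, above, was higher, so partners of the same junction were called in opposite directions. No gene was called among 24 of polarity and planar polarity, where Cdc42 had 352 ± 74.1 and 379 ± 78.1 CPM and Celsr1 207 ± 60.2 and 341 ± 56 CPM.

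Of 13 genes in the S100 and interleukin-1 list, 3 were called lower and 0 higher, against 1.92% of all genes called lower, and 1 was called with either the GC or the length trend removed. The calls were S100 genes, which encode small calcium-binding proteins. S100a11 had 486, 831 and 829 CPM at 4w pw1, 205, 144 and 219 CPM at 8w pw1 and 667, 369.5 and 560.4 CPM at 0w. The 8w pw1 libraries were below all 6 others, and the log2 fold change from 4w to 8w was -1.92 ± 0.31 (adjusted p = 0.0152). S100a16 and S100a14 were also called, at -1.55 ± 0.31 (adjusted p = 0.0195) and -1.63 ± 0.33 (adjusted p = 0.0197), and the median of the list was -0.52.

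The 2 longest lists, ribosomal proteins and oxidative phosphorylation, held the most lower calls by number, although the share was larger among the 12 differentiation genes. Of 79 cytoplasmic ribosomal protein genes, 27 were called lower and 0 higher, or 34.2%, against 1.92% of all genes called lower, and 77 had a negative log2 fold change, with a median of -1.10. Their share of counts was 2.08, 2.54 and 2.16% at 4w pw1 and 1.08, 0.877 and 1.11% at 8w pw1, and between 1.30 and 2.12% in the other 12 Lrig1 GL libraries. Rpl27 had 145, 156 and 149 CPM at 4w pw1 and 40.4, 18.3 and 34.3 CPM at 8w pw1, a log2 fold change of -2.26 ± 0.41 (adjusted p = 0.0157). Rpl41 and Rpl32 were called at -1.43 and -1.30. Many of these genes have processed pseudogenes in the genome, so their counts are less certain than most. Eif6, which keeps the large ribosomal subunit from joining too early, fell from 289.6, 449.6 and 379 to 103, 111 and 90.1 CPM at -1.88 ± 0.31 (adjusted p = 0.0152).

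Of 72 nuclear-encoded genes of oxidative phosphorylation, 24 were called lower and 0 higher (33.3%, against 1.92% of all genes called lower), with a median of -1.04. Uqcr11, a complex III subunit, had 383, 371 and 418 CPM at 4w pw1 and 125, 131 and 159 CPM at 8w pw1, at -1.50 ± 0.28 (adjusted p = 0.0157). Ndufa13 of complex I and the complex IV subunits Cox4i1 and Cox6b1 had log2 fold changes of -1.79, -1.23 and -1.66. Of 30 proteasome genes 8 were lower (26.7%, against the same 1.92%), led by Psmb3 at -1.54 ± 0.29 (adjusted p = 0.0157), with Psmb6, Psmc4 and Psma7 at -1.48, -1.40 and -1.49, and the median was -0.89. These 3 lists have short transcripts, with median lengths of 838, 824 and 1490 bases. With the length trend removed their medians were -0.57, -0.50 and -0.62, and none of their members was called. With the GC trend removed they were -0.83, -0.84 and -0.81, with 1, 1 and 2 members called lower.

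The remaining genes with the smallest adjusted p among the lower calls encode short housekeeping proteins. Dad1 (chr14:54235479-54254104), a subunit of the oligosaccharyltransferase that glycosylates proteins in the endoplasmic reticulum, had 280.5, 319 and 279 CPM at 4w pw1 and 76.8, 84.3 and 114 CPM at 8w pw1, at -1.67 ± 0.28 (adjusted p = 0.0152). Atp6v0e, of the proton pump of lysosomes, had 415, 516 and 637 and 125, 139.8 and 131 CPM, at -1.99 ± 0.33 (adjusted p = 0.0152). Atox1, a copper chaperone, fell from 384 ± 91.8 to 109 ± 38.2 CPM at -1.82 ± 0.33 (adjusted p = 0.0157), and Slc25a39, a carrier of the inner mitochondrial membrane, from 307 ± 63.9 to 79.9 ± 28 CPM at -1.94 ± 0.35 (adjusted p = 0.0157). All 4 were lower in each library of 8w pw1 than in any of 4w pw1. Snrnp25, of the minor spliceosome, had the largest change among the 12 lower genes with the smallest adjusted p, -3.66 ± 0.65 (adjusted p = 0.0157), from 31.1, 112 and 77.1 to 5.10, 7.94 and 4.29 CPM. At 0w it was also low, with 27.2, 9.34 and 22.4 CPM. Cenpx, a small centromere and DNA repair protein, had a log2 fold change of -2.03 ± 0.37 (adjusted p = 0.0157).

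Stress and metabolic lists held few calls, most of them lower. In each list of this paragraph 1 or 2 genes were called, or 3.85 to 11.1% of its members, against 3.68% of all genes. Among 24 endoplasmic reticulum genes these were P4hb and Pdia6, disulfide isomerases, at -1.32 and -1.12. Among 21 genes of the NRF2 response and metallothioneins they were Gpx1, a glutathione peroxidase, at -1.36 ± 0.25 (adjusted p = 0.0157), and G6pdx, of the pentose phosphate pathway, at -1.57 ± 0.43 (adjusted p = 0.0499). Hsp90ab1 was the call among 12 heat shock genes (-1.01), Mif, a cytokine, among 26 of glycolysis and hypoxia (-1.43), and Ifitm3, an antiviral membrane protein, among 19 of the interferon response (-1.19). In the lysosome list of 18, Cd63 was lower (-1.09) and Lamp2 higher (1.49), and among 26 Rab GTPases Rab1b was lower (-1.42) and Rab21 higher (1.53). Of 30 cell cycle genes, the inhibitor Cdkn1a was lower at -1.60 ± 0.40 (adjusted p = 0.0348), from 169, 662 and 482 to 166, 128 and 138 CPM, and the inhibitor Cdkn1b higher at 1.77 ± 0.48 (adjusted p = 0.0493). No other cell cycle gene was called, and the median was -0.62.

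**Figure D4:**
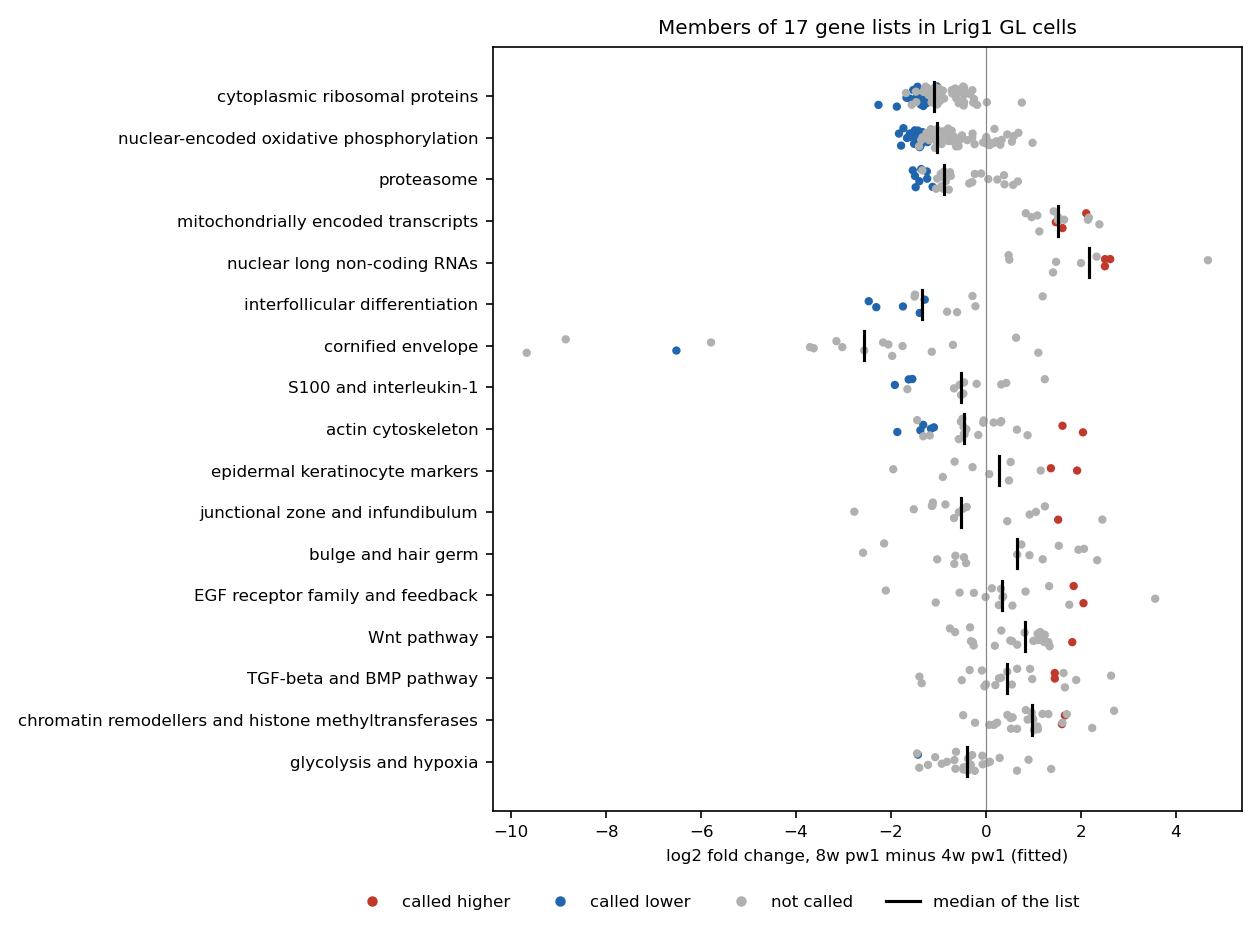
Fitted log2 fold change (8w pw1 minus 4w pw1) of each tested member of 17 gene lists in Lrig1 GL cells, with called members in red (higher) or blue (lower), uncalled members in grey and the median as a black bar. The medians run from -2.56 for the cornified envelope to 2.17 for nuclear long non-coding RNAs, and the most negative values belong to cornified envelope genes with few or no counts at 8w pw1.

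Transcripts made in mitochondria moved the other way from the nuclear-encoded subunits of the same complexes. All 15 mitochondrially encoded genes had a positive log2 fold change, with a median of 1.52. Of the 15, 4 were called (26.7%, against 1.77% of all genes called higher). Of these mt-Co1, the catalytic subunit of complex IV, had 13916, 4810.2 and 4567 CPM at 4w pw1 and 39853, 21584 and 39429.7 CPM at 8w pw1, at 2.11 ± 0.55 (adjusted p = 0.0428). The 0w level of mt-Co1 was 4148, 3476 and 3930.0 CPM. The mitochondrial ribosomal RNA mt-Rnr1 and the complex I subunits mt-Nd4 and mt-Nd2 were called at 1.61, 1.47 and 1.55. These transcripts are GC-poor (median 36%) and short (median 955 bases). With the GC trend removed the median of the list was -0.17 and 0 members were called. With the length trend removed it was 2.09 and 4 were called. Without the mitochondrially encoded genes, 538 of the nuclear genes were called, 243 higher and 295 lower.

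Of 10 nuclear long non-coding RNAs 3 were called higher (30%, against 1.77% of all genes), with all 10 positive and a median of 2.17. Mir99ahg, the host transcript of a microRNA cluster, had 78.5, 71.2 and 52.5 CPM at 4w pw1 and 438, 352 and 365 CPM at 8w pw1, at 2.51 ± 0.38 (adjusted p = 0.0152). Malat1, an abundant RNA of nuclear speckles, had 1785, 2263 and 845 and 11395, 8613 and 7837 CPM, at 2.51 ± 0.51 (adjusted p = 0.0197), and 1409.9, 5483 and 1787 CPM at 0w. Kcnq1ot1, which lies antisense in Kcnq1, was called at 2.62 ± 0.65 (adjusted p = 0.0340). The strand setting of the counting is not given in the sources used here, so reads of Kcnq1ot1 and of its host may have been mixed. Xist, the RNA that coats the inactive X chromosome, had 708, 513 and 202 CPM at 4w pw1 and 5264, 3221 and 5718 CPM at 8w pw1, at 3.32 ± 0.90 (adjusted p = 0.0495), and 116, 2364 and 686 CPM at 0w. With the GC or the length trend removed, Xist stood at 2.39 and 2.10 and was not called. Of 5 X-inactivation and Y-linked genes, Xist alone had counts in these 6 libraries. The sex of the mice behind single libraries is not given in the sources used here, and its part in these values was not tested. The median of the nuclear RNA list was 1.13 with the GC trend removed and 1.27 with the length trend removed, with 0 and 1 members called.

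The remaining higher genes with the smallest adjusted p have varied roles. Rbm39, a splicing regulator, had 452, 232 and 213 CPM at 4w pw1 and 1059.6, 1260.5 and 1051 CPM at 8w pw1, at 1.91 ± 0.33 (adjusted p = 0.0157). Rbm26, another RNA-binding protein, had 198, 135 and 81.1 and 559.6, 746 and 493 CPM, at 2.11 ± 0.36 (adjusted p = 0.0157). Rif1, which sets replication timing and protects broken DNA ends, had 40.8, 48.8 and 32.6 and 322, 191 and 131 CPM, at 2.39 ± 0.37 (adjusted p = 0.0152). Each library of 8w pw1 was above the 0w mean of these 3 genes (363 ± 17.3, 137 ± 13.3 and 101 ± 9.83 CPM), and for Rif1 each library of 4w pw1 was below it. Shprh, a ubiquitin ligase of DNA damage tolerance, rose from 33.7, 28.4 and 44.5 to 306, 172 and 204 CPM at 2.68 ± 0.42 (adjusted p = 0.0152), and Naa30, of an N-terminal acetyltransferase, from 42.6 ± 15.2 to 183 ± 43 CPM at 2.10 ± 0.37 (adjusted p = 0.0157). Among the lists, Setd5 and Chd8 were called of 29 chromatin remodellers and histone methyltransferases (1.67 and 1.60), or 6.90% against 1.77% of all genes called higher, and among all 29 of them 27 were positive with a median of 0.97. Asxl2 was called of 30 Polycomb and H2A deubiquitinase genes (1.78, 3.33%), with a median of 0.59. The chromatin remodeller list has a median transcript length of 8714 bases. Its median fell to 0.02 with the length trend removed, with 0 members called.

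Apart from the lists, a set of further genes was followed, chosen with earlier results of these data known. Of these Postn, above, was called. Gja1, the most widespread connexin, had 530.3, 407 and 249.6 CPM at 4w pw1 and 468, 335 and 608 CPM at 8w pw1, against 150.4, 94.2 and 181 CPM at 0w. Rab31, a vesicle GTPase, had 31.6, 24.9 and 27.8 and 22.2, 9.77 and 22 CPM, against 0, 1.62 and 3.20 CPM at 0w. Every library of 4w and 8w pw1 was above every 0w library in both genes, and the differences between 8w and 4w, 0.25 ± 0.37 (adjusted p = 0.741) and -0.64 ± 0.60 (adjusted p = 0.561), were not called. Fam162a, a hypoxia-induced mitochondrial protein, had 712, 476 and 510.3 CPM at 4w pw1, 243, 251 and 397 CPM at 8w pw1 and 178, 115 and 218 CPM at 0w, with a difference of -0.93 ± 0.35 (adjusted p = 0.127). Slc2a1, a glucose transporter, and Krt6a stood at -0.08 ± 0.36 (adjusted p = 0.929) and -0.87 ± 0.46 (adjusted p = 0.270). Fabp5 and the metallothionein Mt2 stood at -1.78 ± 0.63 (adjusted p = 0.111) and 0.62 ± 0.34 (adjusted p = 0.301).

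No gene was called among 19 other immediate early genes (median 0.62), 12 wound stress factors (0.43) or 20 circadian clock genes (0.48). Klf4 had 308 ± 129 and 474 ± 149 CPM at 4w and 8w pw1, and Btg1 311 ± 134 and 458 ± 135 CPM. Hif1a, the hypoxia factor, had 450.2 ± 78.7 and 551 ± 111 CPM and Klf5 341 ± 46.5 and 279.5 ± 24.4 CPM. The clock gene Per3 had 237, 291 and 274 CPM at 4w pw1 and 603, 567 and 529 CPM at 8w pw1, which did not overlap, and Nr1d2 269.7, 94.1 and 46.1 and 213, 501 and 643 CPM, which did.

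Markers of other skin cells were rare at both time points. Of 14 immune markers 3 were in the table and 1, Cd68, was tested, with 0, 0 and 0 CPM at 4w pw1 and 1.82, 0 and 13.4 CPM at 8w pw1. Of 12 fibroblast markers 8 were tested and none called. Their summed share was 0.0419, 0.0204 and 0.0237% of counts at 4w pw1 and 0.0237, 0.0273 and 0.0254% at 8w pw1, most of it from Sparc (204 ± 87.6 and 193 ± 15.3 CPM) and Col6a1 (24.8 ± 26.3 and 33.9 ± 2.25 CPM). Melanocyte and Merkel markers took at most 0.00354% of the counts of a library and endothelial, muscle and blood markers at most 0.00239%. None of the 4 and 3 tested members was called, and those with the highest levels, Mitf (3.98 ± 3.97 and 16.4 ± 3.89 CPM), Dct (6.37 ± 6.63 and 8.55 ± 14.4 CPM), Emcn (1.28 ± 1.11 and 12 ± 7.85 CPM) and Acta1 (3.27 ± 1.40 and 1.80 ± 1.26 CPM), had low levels throughout. The fibroblast collagen Col1a1, the leukocyte antigen Ptprc and the endothelial marker Pecam1 were at or near the floor in all 6 libraries.

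The change from 4w to 8w pw1 was set against that in Lgr5 GL cells, the progeny of the lower follicle, by a test of the difference between both changes in 1 fit over the 36 libraries. Of the 16153 genes tested, out of those counted in both populations, 564 (3.49%) passed an adjusted p of 0.05. In 262 of them Lrig1 GL cells had the more positive change, and in 302 the more negative one. In the Lgr5 GL libraries of these time points a single RNA, Gm12415, took 15.2 to 52.1% of the counts, and Lgr5 GL cells had 77 genes called from 4w to 8w pw1 in the joint fit (0.477%). The 564 became 118 with the GC trend removed and 180 with the length trend removed. With DESeq2's size factors 316 were more positive and 198 more negative in Lrig1 GL cells. Without Lrig1 GL 4w pw1 library a, Lgr5 GL 4w pw1 library a or Lgr5 GL 8w pw1 library c, 685, 758 and 430 genes passed, and without any 1 of the other 9 libraries of these time points between 166 (Lgr5 GL 4w pw1 library c) and 344 (Lgr5 GL 4w pw1 library b).

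Of the 24 genes with the smallest adjusted p in Lrig1 GL cells, 17 passed, against 3.49% of all genes. They were chosen on the Lrig1 GL libraries that enter this contrast, so nothing is read from that count. Cst3, Rabac1, Tra2a and Tuba4a were among the 5 genes in which this difference had the smallest adjusted p, and in each the fitted changes of the populations had opposite signs. Cst3, a secreted cysteine protease inhibitor, had 529.9, 850.2 and 716 CPM at 4w pw1 and 346, 341 and 359 CPM at 8w pw1 in Lrig1 GL cells, and 241, 269 and 237 CPM and 1352, 1329 and 1767 CPM in Lgr5 GL cells. In these CPM values Cst3 was higher in Lrig1 GL cells at 4w pw1 and higher in Lgr5 GL cells at 8w pw1, with no overlap at either time. Levels set side by side between the populations depend on the scaling, given the large share of Gm12415 in Lgr5 GL libraries only. The log2 changes of Cst3 differed by -3.58 ± 0.45 (adjusted p = 0.000131). Tra2a, a splicing factor, had 81.1, 68.5 and 65.9 and 341, 282 and 239 CPM in Lrig1 GL cells and 72.2, 118 and 159 and 57.3, 48.1 and 41 CPM in Lgr5 GL cells, a difference of 3.26 ± 0.48 (adjusted p = 0.000785). Rabac1, a receptor for prenylated Rab proteins, and Tuba4a, an alpha tubulin, had differences of -3.44 ± 0.47 (adjusted p = 0.000307) and -2.91 ± 0.43 (adjusted p = 0.000785). Both genes fell in Lrig1 GL cells, to means of 90.5 ± 18.1 and 209 ± 50.2 CPM, and stood at 314 ± 62.3 and 619.6 ± 102 CPM in Lgr5 GL cells at 8w pw1.

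Among the same further genes, Gja1, Krt5 and Lrig1 passed the same test. Gja1 had 3365, 1144 and 2141 CPM at 4w pw1 and 542, 458 and 689 CPM at 8w pw1 in Lgr5 GL cells, and Lrig1 GL cells had 349.9 ± 125 and 431 ± 121 CPM, a difference of 2.27 ± 0.57 (adjusted p = 0.0235). Krt5 had 2826 ± 762 and 4879 ± 918 CPM in Lgr5 GL cells and 3566 ± 149.9 and 2341 ± 616 CPM in Lrig1 GL cells, a difference of -1.40 ± 0.33 (adjusted p = 0.0175). Lrig1 had 168 ± 22.6 and 61.3 ± 22.8 against 65 ± 21.1 and 92.2 ± 23.5 CPM, a difference of 1.95 ± 0.50 (adjusted p = 0.0288). Of all genes tested, 3.49% passed this test in either direction, which is the share to set beside the lists. The median log2 change of ribosomal protein genes was -1.04 in the joint fit for Lrig1 GL cells, against 0.22 for Lgr5 GL cells. Of these genes, 9 of 79 passed the test of the difference, all more negative in Lrig1 GL cells. For nuclear-encoded oxidative phosphorylation the medians were -0.98 and 0.15, with 9 of 72 past the test in the same direction. For interfollicular differentiation they were -1.29 and 0.14, with 4 of 12 more negative and 1 more positive in Lrig1 GL cells. For mitochondrially encoded genes they were 1.57 and 0.82, and none of 15 passed the test.

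**Figure D5:**
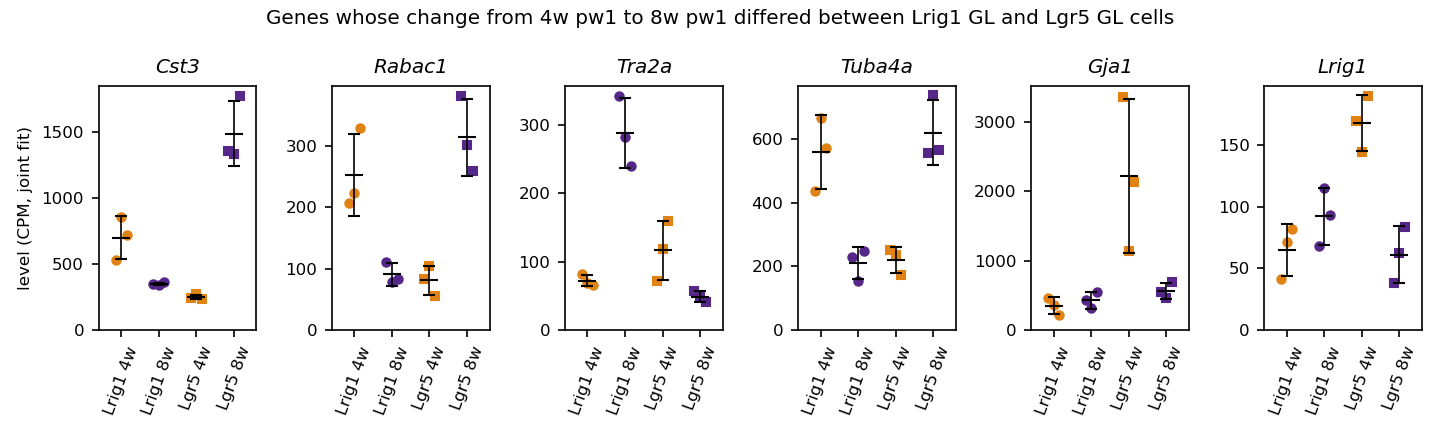
Level of Cst3, Rabac1, Tra2a, Tuba4a, Gja1 and Lrig1 in each library of Lrig1 GL (circles) and Lgr5 GL cells (squares) at 4w pw1 and 8w pw1 (CPM from the joint fit, linear axes from 0), with mean and SD of 3 libraries. In Cst3, Rabac1 and Tuba4a the Lrig1 GL values are lower and the Lgr5 GL values higher at 8w pw1, and Tra2a shows the reverse.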

How the data were processed

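Libraries from 150 sorted tdTomato+ cells were prepared by mini-bulk RNA-seq without molecular identifiers. The authors deposited raw counts per gene for each population, from reads trimmed with Trim Galore 0.5.0, aligned with HISAT2 to GRCm38 and counted with featureCounts over GENCODE M20 exons, summed by gene name, and the strand setting is not given in the sources used here. Total counts of the 6 libraries were between 1264142 and 3365666, so that a floor of 3 counts was between 0.891 and 2.37 CPM.

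From these counts, the 18 Lrig1 GL libraries were fitted by time point in edgeR 4.0.16 (R 4.3.3) with TMM scaling, filterByExpr (minimum count 10) and a quasi-likelihood test of 8w pw1 against 4w pw1, with Benjamini-Hochberg adjustment over 14306 genes of 20181. The difference between populations was the interaction in 1 fit over the 36 libraries. Values are given as CPM with SD and log2 fold changes with SE. The script was tested on simulated data. The study's methods also used surrogate variables, which were an alternative here because they are estimated with the groups known. Other alternatives used DESeq2 1.42.0, limma 3.58.1, sva 3.50.0, other filters and scalings, GC trends and a replicate block. The length trend was added after the data were seen. Trends were lowess fits (span 0.3) of each library's deviation from the gene's mean log2 CPM, on GC content or on log2 transcript length. Positions, lengths and GC content came from GENCODE M21 of the same build, with 1 transcript per gene. The 3 libraries per time point came from separate mice, and an exact permutation test of 3 against 3 cannot go below p = 0.1.

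The comparison and the gene lists were chosen with earlier results of these data known. Named genes were the 12 higher and 12 lower called genes with the smallest adjusted p (mean of at least 10 counts, no overlap, no clone-based symbols), up to 4 called members of each list or else its 2 most abundant members, 13 further genes chosen with those results known, and the 5 genes in which the population difference had the smallest adjusted p. Some genes that this rule names are not reported here. AC154232.2, Psma2, Serbp1, Krtdap, Rock2, Cfl1, Tpm3, Col1a1, Ptprc, Pecam1 and Gm12415 fall outside this rule and were named after their values were seen.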

Additional observations from a re-analysis of the deposited data

Results flagged for a closer look

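Lrig1 GL and Lgr5 GL cells differed in their change between 4w and 8w pw1 for 564 genes, by the test of the difference itself in edgeR's quasi-likelihood fit over both populations (adjusted p under 0.05). The values that follow are the Lrig1 GL minus the Lgr5 GL log2 change, so a positive value means a more positive change in Lrig1 GL cells. Of the genes named for their adjusted p or followed apart from the lists, 24 passed, against 3.49% of all genes tested. They include 17 of the 24 genes with the smallest adjusted p in Lrig1 GL cells and 3 of the 12 further genes reported here. Cst3, Rabac1, Tra2a and Tuba4a were named because they passed this same test, so nothing is read from the count. Genes named only as list members are not in that count, and several of them passed as well. Among these were Dmkn (-2.68, adjusted p = 0.00170), Malat1 (3.40, adjusted p = 0.00938), Trp63 (2.16, adjusted p = 0.0136) and Egfr (2.07, adjusted p = 0.0485).

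Among the 12 higher genes with the smallest adjusted p in Lrig1 GL cells, the difference was 2.85 for Mir99ahg, 3.44 for Shprh, 2.87 for Rif1, 3.08 for Dyrk2, 2.93 for Trpm7, 2.79 for Rbm26, 2.42 for Rbm39 and 2.51 for Cd2ap. These genes were chosen on the Lrig1 GL change, which is part of this contrast, so the choice favoured positive differences. In Lgr5 GL cells, Shprh had 58.1 ± 13.4 CPM at 4w pw1 and 35.3 ± 24 CPM at 8w pw1, and Trpm7 147 ± 6.43 and 87.8 ± 7.10 CPM.

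Among the 12 lower genes, the difference was -2.40 for S100a11, -1.99 for Atp6v0e, -2.17 for Eif6, -1.67 for Pfn1, -2.20 for Dad1, -4.03 for Snrnp25, -2.07 for Atox1, -2.64 for Rpl27 and -2.64 for Cenpx. Here the same way of choosing favoured negative differences. In Lgr5 GL cells, S100a11 had 213 ± 60.4 CPM at 4w pw1 and 309 ± 40.0 CPM at 8w pw1, and Dad1 112 ± 9.92 and 167 ± 25.3 CPM.

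Of the further genes followed, Gja1 differed by 2.27, Krt5 by -1.40 and Lrig1 by 1.95. Cst3 (-3.58), Rabac1 (-3.44), Tra2a (3.26) and Tuba4a (-2.91) were among the 5 genes in which the difference had the smallest adjusted p.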

How the results depend on the processing

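The 527 calls between 8w and 4w pw1 became 1534 with DESeq2, 1291 with edgeR's likelihood ratio test, 346 without a filter on low counts, 1042 among genes with a mean of at least 50 counts, 45 with the GC trend removed and, in alternatives chosen after seeing the data, 50 with the length trend and 5 with both trends removed. No gene (0) was called by edgeR in a test against a log2 fold change of 1 (1362 at an unadjusted p under 0.05), with 5 or 2 surrogate variables (1612 and 1030) or with the GC trend removed in a blocked fit (1645). Leaving out each library in turn gave 0 to 463 calls. The share of higher genes among the calls, 48%, was 67.9% of 639 in the 6 libraries alone, 58.5% of 511 with DESeq2's size factors, 58.5% of 609 with limma-voom and 59.4% with DESeq2. The 564 genes of the population difference became 1150 with the likelihood ratio test, 118 and 180 with the GC or length trend removed, and 166 to 758 with 1 library left out. The causes of these moves were not tested.

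The replicate block, from the numbers in the count table, left 0 calls in edgeR (2459 at an unadjusted p under 0.05) and 159 for the population difference. The time points share 2 numbers, whose libraries deviated together with r of -0.0318 and -0.0145, so the libraries share a number and no pairing is shown.

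Named genes that were called kept their sign when any 1 library was left out, which their lack of overlap all but fixed in advance. Signs changed as follows. With the GC trend removed, mt-Rnr1 stood at -0.17, mt-Nd4 at -0.26, mt-Nd2 at -0.22, Gja1 at -0.25 and Slc2a1 at 0.31, and in the blocked fit of that kind at -0.0653, -0.0583, -0.13, -0.21 and 0.24. With both trends removed, Bmpr2 stood at -0.25, Skil at -0.0152, Gja1 at -0.41 and Slc2a1 at 0.14, and with the length trend removed Gja1 at -0.0215 and Lrig1 at -0.16. Gja1 was at -0.21 with 5 and -0.67 with 2 surrogate variables, which also turned Krt6a to 0.0408 and Mt2 to -0.0924. Gja1 ranged from -0.0128 to 0.52 and Slc2a1 from -0.44 to 0.33 with 1 library left out.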
